A study of Mus musculus with 8 samples.

Results

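The 10 genes described here encode inhibitors of the ERK signalling cascade, and each carried m6A peaks in every list of the study. They comprise the dual-specificity phosphatases Dusp1, Dusp4, Dusp5, Dusp6 and Dusp7, the Sprouty genes Spry1, Spry2 and Spry4, and the Spred genes Spred1 and Spred2. The genes were taken by name as a functional family, with no threshold on a measured value, although earlier results of these data were known when the family was chosen. A peak was assigned to a gene when its summit, the base of highest enrichment, lay in an annotated exon of that gene (GENCODE M21, GRCm38). These 10 genes of the 55450 annotated held 82 of the 42744 summits in the 4 lists together. Of 6075 genes with an exonic summit in any list, 3690 had one in all 4 lists, which is 60.7% of them, and all 10 ERK inhibitor genes did.

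To map m6A in vascular smooth muscle cells (VSMCs) and its change after loss of Mettl14, a subunit of the m6A methyltransferase complex, m6A-RIP-seq was performed on primary VSMCs grown from the descending aorta of adult C57BL/6J mice. Cells were transduced with lentivirus that expressed an shRNA against Mettl14 (shMettl14) or a nontargeting plant microRNA sequence (shCTR), so the controls had also been exposed to virus and shRNA. Fragmented total RNA was enriched with an m6A antibody (IP) and compared with the unenriched input of the same sample. There were 2 replicates, A and B, of each shRNA, 4 IP and 4 input samples in all, and 1 peak list for each IP sample. One shRNA against Mettl14 was used, in cultured cells, and no PDGF-BB or other stimulus is named for these samples.

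The lists held 11158 and 8655 summits in shCTR A and B and 13675 and 9256 in shMettl14 A and B, so both A lists were longer than both B lists. They do not give the number of reads of each library. The number of IP fragments at each summit was recovered from the fold enrichment and the p-value, and its median over all summits was 16 for either shCTR replicate, 14 for shMettl14 A and 13 for shMettl14 B. A gene without a peak may have been too scarce to be called, and more fragments at a peak can mean more RNA or more methylation. The enrichment is relative to a local background for which the peak caller drew on the input. Transcript levels were not measured apart from it. No exon of Mettl14 held a summit, and the lists do not measure transcript levels, so the knockdown could not be checked. Of 8 smooth muscle markers only Myh11 and Lmod1 had exonic summits, whereas Acta2, Tagln, Cnn1, Smtn, Des and Myocd had none. Of 5 endothelial markers Pecam1, Cdh5 and Kdr had summits, as did Csf1r of 4 blood and macrophage markers, in 1 list, and Pdgfra of 4 fibroblast markers. The part of other cells in the results was not tested.

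ERK is the last kinase of a relay in which growth factor receptors activate RAS, RAF, MEK and then ERK, and in VSMCs this relay is a main route from PDGF to proliferation. ERK switches on its own inhibitors. Dual-specificity phosphatases remove phosphate from both the threonine and the tyrosine of active ERK, with Dusp1, Dusp4 and Dusp5 in the nucleus and Dusp6 and Dusp7 in the cytoplasm, whereas Sprouty and Spred proteins act upstream, at the receptors, RAS and RAF. m6A is a methyl mark on adenosine, placed mostly within the motif DRACH (D stands for any base but C, R for a purine and H for any base but G) and often in long exons and around stop codons.

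Summits that lay within 100 nt of each other along the transcript were chained into one site, and 14 of the 26 sites of the 10 genes were found in all 4 lists, compared with 37.6% of all 12801 sites. The DRACH motif nearest to the middle of such a site is printed below with its flanks for 9 of the genes, at a leading site of each. A further site is printed for Spry2. The middle is the median of the summits of the site over the lists. Where a list had more than a single summit at a site, these were averaged first. Single lists could have another motif nearer to their own summit. No stretch is printed for Spry4, although its main site was found in all 4 lists and had a DRACH motif at the summit of shCTR A. Sequences are from the GENCODE M21 transcripts, 5′ to 3′ on the sense strand in DNA letters, with the motif in capitals, and positions are in GRCm38.
Dusp1, 3′ UTR, chr17:26506051-26506075: ggcacattcgGGACCaatatattgt
Dusp4, 3′ UTR, chr8:34818949-34818973: tacacattaaAAACAaacacaacta
Dusp5, 3′ UTR, chr19:53541831-53541855: agatttgtcaGGACAaaaggtacct
Dusp6, coding, chr10:99264793-99264817: gctgtgccaaGGACTcgaccaactt
Dusp7, 3′ UTR, chr9:106374176-106374200: ctcagctttcAGACTtgcggcttgg
Spry1, 3′ UTR, chr3:37643558-37643582: gaggtgggttGGACCtccgcggaat
Spry2, 5′ UTR, chr14:105896689-105896713: cttggaagttGGACTgaagcagagt
Spry2, coding, chr14:105893200-105893224: acaggtgtgaGGACTgcggcaagtg
Spred1, coding, chr2:117177542-117177566: gtggtatttaAGACAcagcctccct
Spred2, coding, chr11:20021140-20021164: atcacgaagaGAACCgaaggggcca
Among these 10 stretches, those of Dusp6 and both of Spry2 had GGACT, those of Dusp1 and Spry1 GGACC and that of Dusp5 GGACA, so the core GGAC was not shared by all. The adenosine of the motif lay 0 nt from the median summit at the 5′ UTR site of Spry2 and 36 nt at Dusp4. At Dusp6, where the signal of each shMettl14 list was split, the single summits lay 8 to 76 nt from GGACT. IP fragments were about 200 nt long, so a summit does not resolve which adenosine was bound, and up to 7 DRACH motifs, at the 3′ UTR site of Dusp1, fell within 50 nt of a median summit.

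**Figure D1:**
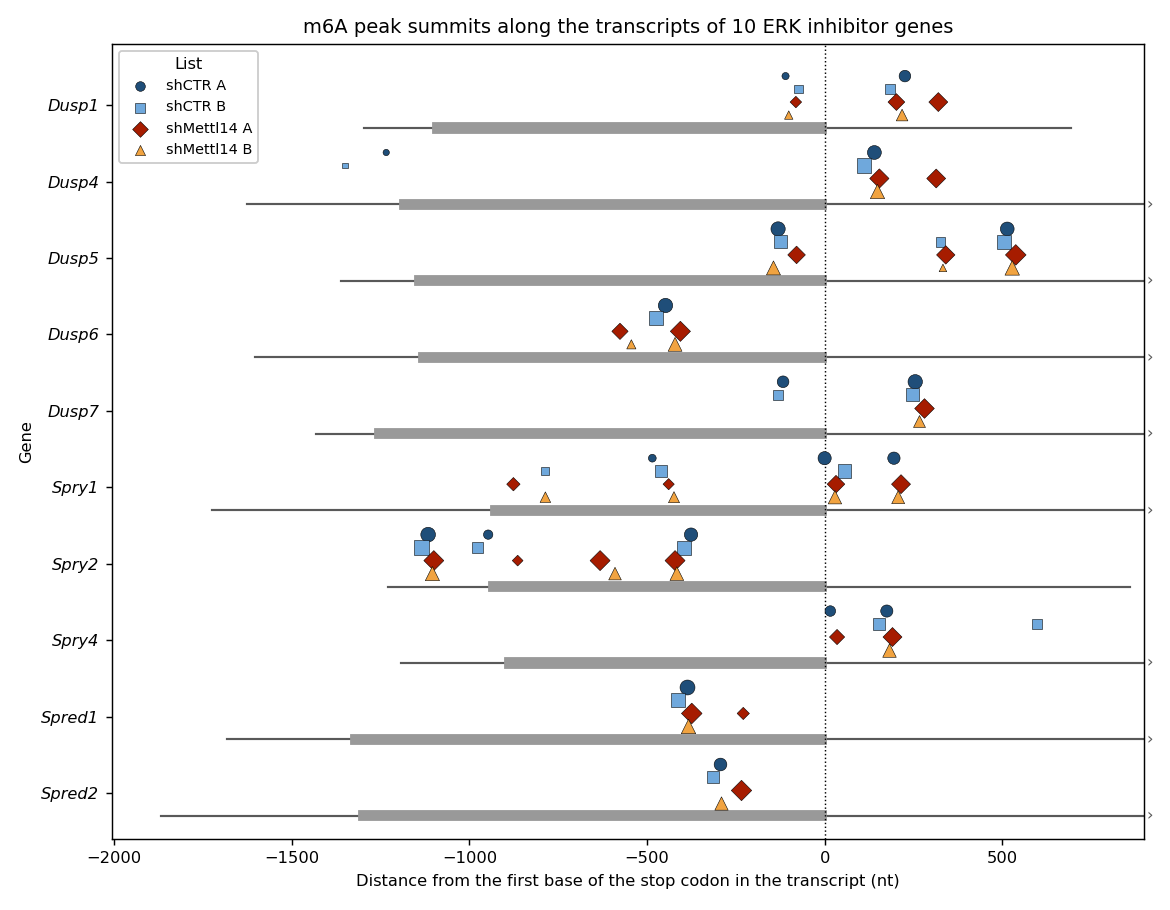
Each symbol is a summit, placed by its distance in nt from the stop codon (0, dotted line) in the transcript of its gene, with 1 symbol shape and colour per list and larger symbols for a higher percentile of fold enrichment. Grey boxes are coding sequence, lines are UTRs, and › marks 3′ UTRs that continue beyond the axis. Sites such as those of Dusp4 in the 3′ UTR and of Spred1 recur at nearly the same place in all 4 lists. The strongest summit of Dusp1 lies 184 nt after the stop codon in shCTR B and 320 nt after it in shMettl14 A. Dusp6, Spred1 and Spred2 have all their summits in coding sequence.

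The nuclear phosphatases were marked mainly around and after the stop codon. Dusp1, an immediate early gene, had 2 sites in all 4 lists, both in its last exon, and they were unequal in strength. The coding site, 73 to 110 nt before the stop codon, was enriched 4.78- and 5.69-fold in shCTR A and B and 5.22- and 5.74-fold in shMettl14 A and B. The 3′ UTR site, 184 to 320 nt after it, was enriched 8.03-, 7.09-, 10.2- and 8.34-fold in the same order. Both shMettl14 lists thus stood above both shCTR lists at the 3′ UTR site, and all 4 lists had stronger enrichment there than at the coding site. The fragments at the 3′ UTR site, 46, 32, 32 and 22, did not follow that order, and on the centred log2 scale they differed by −0.27, in the opposite direction, beside backgrounds of 4.85, 3.65, 2.23 and 1.76. Fold enrichments rest on the depth and background of each list, so they were turned into percentiles within a list before lists were compared. A percentile also moves with the number of weak peaks in a list, and 10.8-fold stood at 72.0 in shCTR B and at 78.7 in shMettl14 A. The percentile of the 3′ UTR site was 45.7 ± 9.07 (SD, n = 2) in shCTR and 64.1 ± 16.1 in shMettl14, and in shMettl14 A it belonged to a summit 320 nt after the stop codon, beside a weaker one at 202 nt.

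Dusp4, a nuclear phosphatase for ERK, JNK and p38, carried its main site in the 3′ UTR, 112 to 154 nt after the stop codon. IP fragments at the summit numbered 46 and 48 in shCTR A and B and 34 and 37 in shMettl14 A and B, and the percentiles were 81.8, 84.5, 78.7 and 87.6. The groups overlapped in percentile, with means of 83.1 ± 1.91 (SD, n = 2) and 83.2 ± 6.30. In shMettl14 A a further summit, with 31 fragments, lay 314 nt after the stop codon. Dusp4 was also the only one of the 10 genes with a region found in both lists of one shRNA and neither of the other. This region, chr8:34807456-34807924 in the 5′ UTR, had 12 and 14 fragments in replicates A and B of shCTR, at percentiles of 3.64 and 0.572, and no peak in either shMettl14 list. Across all 11361 regions 1.71% were found in shCTR alone and 1.79% in shMettl14 alone, against 1 and 0 of the 14 regions of these genes. It was among the weakest peaks of its lists, its summits in the 2 lists were 117 nt apart, and it was lost when only peaks with a −log10 q of at least 3 were kept.

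Dusp5, an ERK-selective nuclear phosphatase, had a coding and a 3′ UTR site, both in the last exon. The coding site, 79 to 144 nt before the stop codon, lay at percentiles of 87.1 and 70.8 in shCTR A and B and 62.8 and 83.8 in shMettl14 A and B, so the groups overlapped. The 3′ UTR site, 505 to 538 nt after it, lay at 79.9, 78.7, 92.7 and 90.4. Here both shMettl14 lists stood above both shCTR lists, with 79.3 ± 0.800 (SD, n = 2) in shCTR and 91.6 ± 1.68 in shMettl14, while the fragments, 39, 32, 33 and 29, overlapped. Between them, 326 to 341 nt after the stop codon, shCTR B and both shMettl14 lists had a further site at percentiles of 30.7, 70.4 and 13.

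The cytoplasmic phosphatases differed in where they were marked. Dusp6, the ERK-specific phosphatase best known as a readout of ERK activity, had its whole signal in coding sequence, 406 to 576 nt before the stop codon, and it was the only one of the 10 genes with no summit in the last exon. The strongest summit was enriched 14.5- and 10.8-fold in shCTR A and B and 12.7- and 12.5-fold in shMettl14 A and B. The shMettl14 lists thus lay between the shCTR lists. Each shMettl14 list split the signal into 2 summits where each shCTR list had 1, and the mean over the summits of the gene was 80.3 ± 11.8 (SD, n = 2) in shCTR and 61.8 ± 10.9 in shMettl14, whereas that of the strongest summit alone was 80.3 ± 11.8 and 84.5 ± 4.29.

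Dusp7, a close relative of Dusp6, was marked in the 3′ UTR, 247 to 280 nt after the stop codon, with 35 and 17 fragments in shCTR A and B and 20 and 14 in shMettl14 A and B. The percentiles of 89.1, 69.5, 82.5 and 56.3 followed the replicate letter more than the shRNA, with both A lists above both B lists. Dusp7 also had the only site found in both shCTR lists and neither shMettl14 list, 117 to 131 nt before the stop codon, with 13 fragments in the A list and 10 in the B list. The shCTR intervals were 549 and 592 bp long and ran over both sites, whereas the shMettl14 intervals were 152 and 165 bp long and covered the 3′ UTR site only. Sites of this kind made up 1.93% of all sites and were 1 of the 26 here, or 2 when summits were chained within 50 nt (2.30% of all sites) or 150 nt (1.91%).

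Among the Sprouty genes, Spry1 and Spry2 held the most summits of the 10 genes. Spry1 had 3 in each shCTR list and 4 in each shMettl14 list, spread over 4 sites. The site at the stop codon lay at percentiles of 72.0 and 80.2 in shCTR A and B and 63.2 and 75.8 in shMettl14 A and B. A second site 195 to 215 nt after it was at 61.1 in shCTR A, 75.9 in shMettl14 A and 69.2 in shMettl14 B. In shMettl14 A this second site was the stronger of the pair, and in shCTR B it was not called. The coding site 424 to 485 nt before the stop codon rested on 8, 24, 11 and 14 fragments and ranged from percentile 14.1 to 56.7 within shCTR alone, a wider gap than that between the group means of 35.4 ± 30.1 (SD, n = 2) and 30.8 ± 21.4. The most upstream site, 786 to 876 nt before the stop codon, was absent from shCTR A and had 13, 8 and 16 fragments in the other lists.

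Spry2, the Sprouty member most often studied as a brake on receptor tyrosine kinases, was covered by the most fragments of the 10 genes, at 2 distant places in its transcript. The 5′ UTR site, in the first exon, had 61 and 51 fragments in shCTR A and B and 50 and 37 in shMettl14 A and B, with enrichments of 16.5-, 15.1-, 12.3- and 13.8-fold. Both shCTR lists were above both shMettl14 lists on the percentile scale as well, at 91.1 ± 2.76 (SD, n = 2) against 86.1 ± 0.124. The coding site 376 to 421 nt before the stop codon, in the last exon, had 63, 61, 54 and 41 fragments, and its percentiles of 74.5, 82.6, 86.4 and 79.4 overlapped. A weaker site 864 to 977 nt before the stop codon, at the junction of 5′ UTR and coding sequence, was called in every list but shMettl14 B. Further along, a summit 590 to 632 nt before the stop codon was called in shMettl14 A with 41 fragments and in shMettl14 B with 29, and in neither shCTR list. Sites found in shMettl14 alone made up 3.93% of all sites and were 1 of 26 here, or 2 when summits were chained within 50 nt (5.35% of all sites). The shCTR intervals ran across that position, so the difference was in how the signal was divided into summits and not in whether the stretch was called.

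Spry4 was marked in the 3′ UTR, close to the stop codon. Its main site, 153 to 191 nt after the stop codon, was enriched 8.72- and 9.29-fold in shCTR A and B and 10.3- and 11.6-fold in shMettl14 A and B. The groups did not overlap, with percentiles of 60.4 ± 1.80 (SD, n = 2) and 76.8 ± 0.700. The fragments were 19, 17, 14 and 14, lower in both shMettl14 lists, and the local background, the number of fragments that the peak caller expected at the summit, was 1.29, 0.937, 0.451 and 0.289, beside medians of 1.13, 1.03, 0.902 and 0.620 over all regions found in the 4 lists. The enrichment of Spry4 was thus higher in shMettl14 beside a lower background and not beside more fragments. A summit 16 to 35 nt after the stop codon was called in both A lists, with 10 fragments each, and a region 598 nt after it in shCTR B alone.

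The Spred genes, whose products bind neurofibromin and keep RAS inactive, were marked in coding sequence of the last of their 7 exons. Spred1 had the strongest enrichment of the 10 genes in both shCTR lists. Its site, 374 to 412 nt before the stop codon, had 45 and 32 fragments in shCTR A and B and 31 and 25 in shMettl14 A and B, with enrichments of 19.8-, 17.6-, 14.5- and 15.2-fold. The shCTR lists were above the shMettl14 lists on each of these scales, and the percentiles were 95.6 ± 2.13 (SD, n = 2) and 91.3 ± 1.56. A further weak summit in shMettl14 A, at percentile 22.0, lowered the mean over the summits of the gene to 57.2 in that list.

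Spred2 had 1 exonic summit in each list, 234 to 314 nt before the stop codon, and its order was the opposite one. It was enriched 9.55- and 9.02-fold in shCTR A and B and 13.5- and 11.1-fold in shMettl14 A and B. The percentiles were 62.6 ± 4.42 (SD, n = 2) in shCTR and 82.1 ± 11.3 in shMettl14, without overlap. Fragments numbered 24, 19, 22 and 17 and overlapped, while the background was 1.62, 1.22, 0.700 and 0.620. Only 3 summits lay in the introns of these genes and were not counted above, 1 each in Dusp1 (shMettl14 A), Dusp5 (shCTR A) and Spred2 (shCTR A). Of the 14 sites found in all 4 lists, 4 thus had a higher percentile in both shMettl14 lists than in both shCTR lists, compared with 17.5% of all such sites, and 2, those of Spred1 and the 5′ UTR of Spry2, a lower one, compared with 15.3%. With percentiles taken within the 4810 sites common to the lists, so that list length did not enter, the counts were also 4 and 2 (17.4% and 16.3% of all).

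**Figure D2:**
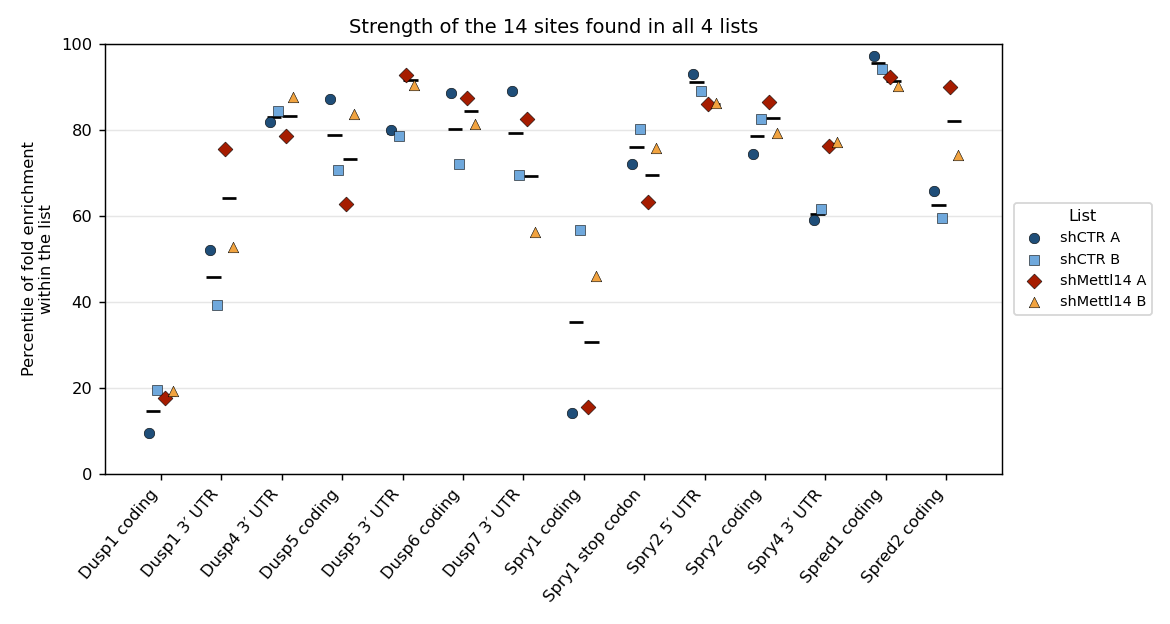
For each of the 14 sites found in all 4 lists, the y axis gives the percentile of fold enrichment within the list (100 is the strongest summit of a list), with 1 symbol per list and a black bar at the mean of the 2 lists of each shRNA. Spred1 and the 5′ UTR site of Spry2 sit near the top in all lists, the coding site of Dusp1 stays below 20, and both shMettl14 lists lie above both shCTR lists at Spred2 and at the 3′ UTR sites of Dusp1, Dusp5 and Spry4, and below them at Spred1 and the 5′ UTR site of Spry2.

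To compare the groups with one test, the intervals of the 4 lists were merged into 11361 regions where they shared at least 1 bp. Of these, 4929 (43.4%) were found in all 4 lists, and of the 14 regions of the 10 genes 12 were. In these regions the highest fold enrichment was ranked among the same 4929 regions of its list, the rank was expressed as a normal score (the value at that rank in a standard normal distribution), and shMettl14 was compared with shCTR by limma. No region of the 4929 passed an adjusted p of 0.05 (0%), and 243 (4.93%) had an unadjusted p under 0.05. Fisher's exact test on the fragments with replicates summed also gave 0, with 158 at an unadjusted p under 0.05. The study's methods name that test with another threshold, P under 0.05 and a log2 fold change above 1. Regions without a peak in every list entered neither test, so a peak lost or gained as a whole could not be found by them. None of the 12 regions of the ERK inhibitor genes reached an adjusted or an unadjusted p of 0.05 in limma. The smallest unadjusted p among the 12 was 0.162 (limma, adjusted p = 0.993), for Spred2.

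Of the 12 regions 7 ranked higher in shMettl14 and 5 lower, and the median difference was 0.10 normal score units, compared with 0.00 over all 4929 regions. The highest estimate was 0.72 ± 0.50 (SE) for Spred2, followed by 0.52 ± 0.50 for Dusp1, which was at 0.00 when −log10 p was ranked in place of the enrichment, and 0.50 ± 0.50 for Spry4. The lowest estimates were −0.46 ± 0.49 for Spred1, −0.41 ± 0.51 for Dusp7 and −0.37 ± 0.49 for the 5′ UTR of Spry2. Single lists weighed on some of these values, and Dusp7 was at −0.07 without shCTR A and −0.12 without shMettl14 B, and Dusp1 at 0.32 and the 5′ UTR of Spry2 at −0.24 without shMettl14 A. With 2 lists per group, the limma SE draws mostly on the spread over all 4929 regions and not on that of a region alone. As at their sites above, Spred2, Dusp1, Dusp5 and Spry4 ranked higher in both shMettl14 lists than in both shCTR lists. Spred1 and the 5′ UTR of Spry2 ranked lower in both. None passed the limma test, so none of these regions was shown to differ, and this does not show that they were alike. Ranks also cannot register a loss that is uniform over all sites.

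The enrichment is the number of fragments plus 1 over the background plus 1, and fragments and background were fitted separately with the same limma design, as log2 values centred on the median of each list. Where the background is below 1, a log2 difference in background enters the enrichment only in part. Fragments at the summit were lower in shMettl14 in 9 of the 12 regions and higher in 3, compared with 2582 and 2346 of all 4929 regions. The median log2 difference was −0.13, beside −0.02 over all regions, and none of the 12 had an unadjusted p under 0.05 in limma. The estimates ran from −0.31 for Dusp6 to 0.34 for the stop codon region of Spry1. The background had a median log2 difference of −0.10, beside 0.06 over all regions, and a wider range, from −1.08 for Spry4 to 0.92 for the stop codon region of Spry1. Spry4, at −1.08 ± 0.30 (SE), was the only one of the 12 under an unadjusted p of 0.05, as were 5.62% of all regions, and it did not pass the correction (adjusted p = 0.834 by limma). Once centred, the background was lower in both shMettl14 lists than in both shCTR lists in 4 of the 12 regions, compared with 14.1% of all regions. Dusp1, Dusp6, Spry4 and Spred2 had the 4 lowest background estimates, from −1.08 to −0.56, and all 4 had positive rank estimates. In Spred1, Dusp4, Dusp7, the 5′ UTR of Spry2 and the stop codon region of Spry1 the background estimate was above 0 and the rank estimate below it. The backgrounds at Spry1, which had the highest estimate, were between 0.433 and 0.940. The background enters the enrichment, so these are not independent measures.

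**Figure D3:**
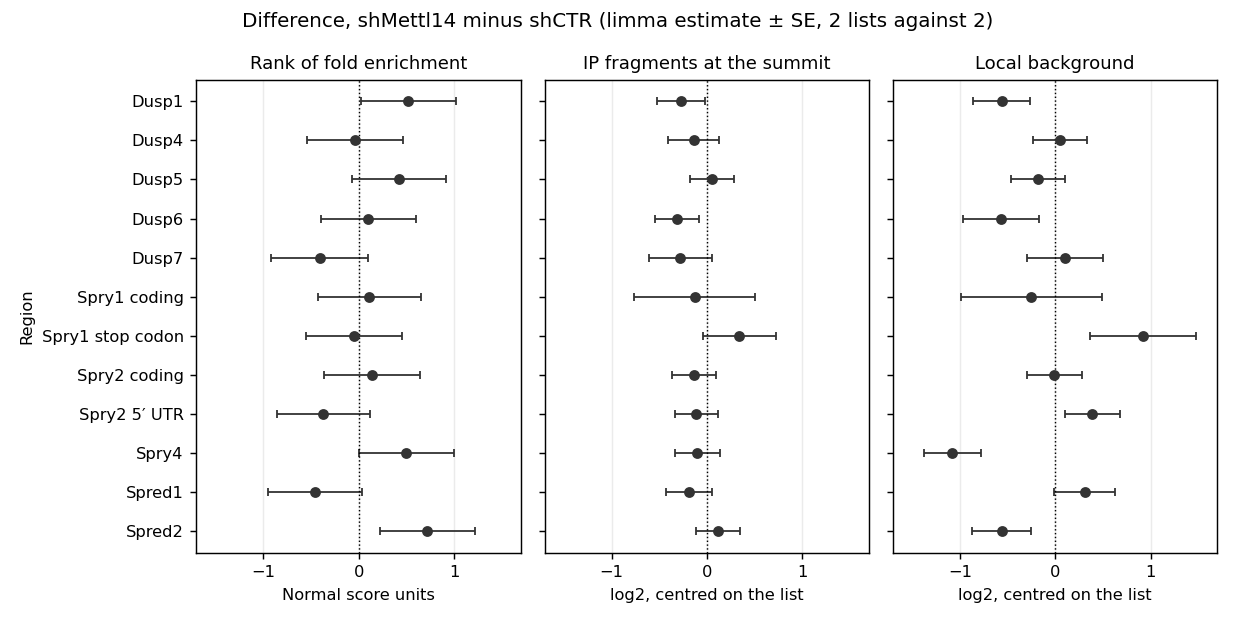
Points are limma estimates of the difference shMettl14 minus shCTR in the 12 regions found in all 4 lists, with bars of 1 SE. The x axes give, from left to right, the rank of fold enrichment in normal score units and IP fragments and local background in log2 units centred on each list. Estimates for fragments lie between −0.31 and 0.34, whereas those for background run from −1.08 for Spry4 to 0.92 for the stop codon region of Spry1.

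The number of peaks in these genes did not separate the groups. Exonic summits numbered 19 and 20 in shCTR A and B and 24 and 19 in shMettl14 A and B, or 19.5 ± 0.707 (SD, n = 2) in shCTR and 21.5 ± 3.54 in shMettl14. The difference of 2 was smaller than the SD of shMettl14, and it came from the shMettl14 A list, without which the means were 19.5 and 19.0. That list also held the most summits per marked gene over all genes, 2.41 compared with 2, 1.78 and 1.94 in the others. The median fragments at the summits of the 10 genes were 32, 24.5, 24 and 19 in the order given, above the medians of 16, 16, 14 and 13 of all summits. For the strongest summit of each gene, the median percentile of the 10 genes was 84.4, 75.4, 84.4 and 79.4, compared with 66.3, 64.0, 67.9 and 64.1 over all genes with a summit.

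Averaged over the 10 genes, the mean percentile of a gene was 61.2 ± 4.46 (SD, n = 2) in shCTR and 67.4 ± 0.157 in shMettl14. That of all 3690 genes was 57.1 ± 0.995 and 55.6 ± 1.62. With 1 list left out, the difference in the 10 genes ran from 3.00 without shCTR B to 9.30 without shCTR A. Of the 10 genes 7 had a higher mean in shMettl14 and 3 a lower one, compared with 1680 and 2010 of all 3690 genes. The highest difference, 39.7 in Dusp4, went with the absence of its weak 5′ UTR peak, and the lowest, −21.9 in Spred1, with the further weak summit in shMettl14 A. When the strongest summit alone was used, the difference was 0.0229 in Dusp4 and −4.29 in Spred1, 6 genes were higher and 4 lower (1898 and 1792 of all genes), and the median of the 10 genes was 2.09, compared with 0.295 over all genes. Exact permutation of 2 against 2 lists cannot give a two-sided p below 0.333, so no test was made of these means.

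By position, the summits of the 10 genes lay mostly in last exons. Of their 82 summits 70 (85.4%) lay in the last exon, compared with 62.5% of all summits in transcripts of at least 2 exons. The 12 exceptions were those of Dusp6 (6), the 5′ UTR of Spry2 (4) and the 5′ UTR of Dusp4 (2). The last exon also makes up most of each of these transcripts, from 1061 of 1990 nt in Dusp1 to 4509 of 4755 nt in Spry4. Exon length was not taken into account. Within 200 nt of the stop codon lay 31.7% of their summits and 26.4% of all, whereas within 400 nt lay 61% and 41.1% and within 100 nt 11% and 14.2%. The order of the 10 genes and all genes thus turned with the window. The 200-nt share was 42.1% and 35% in the A and B lists of shCTR and 25% and 26.3% in those of shMettl14, and the corresponding shares over all genes stayed between 25.4% and 27.1%. The groups overlapped in the other windows, where both shCTR lists lay between the 5.26% of shMettl14 B and the 16.7% of shMettl14 A within 100 nt, and the shares were 68.4%, 55.0%, 62.5% and 57.9% within 400 nt. These shares rest on 8, 7, 6 and 5 summits of the same few genes, so they describe the members and were not tested. Summits in 5′ UTRs numbered 3, 3, 1 and 1, all in Dusp4 and Spry2, and made up 9.76% of the total, compared with 2.58% over all genes.

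DRACH lay within 50 nt of 91.5% of the summits of the 10 genes, compared with 95.7% of all summits, and within 100 nt of 100% and 99.6%. So nearly every summit, in these genes or any other, had such a motif nearby. The stricter GGACT, searched on the sense strand and itself a form of DRACH, lay within 50 nt of 22.0% and 21.7%.

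**Figure D4:**
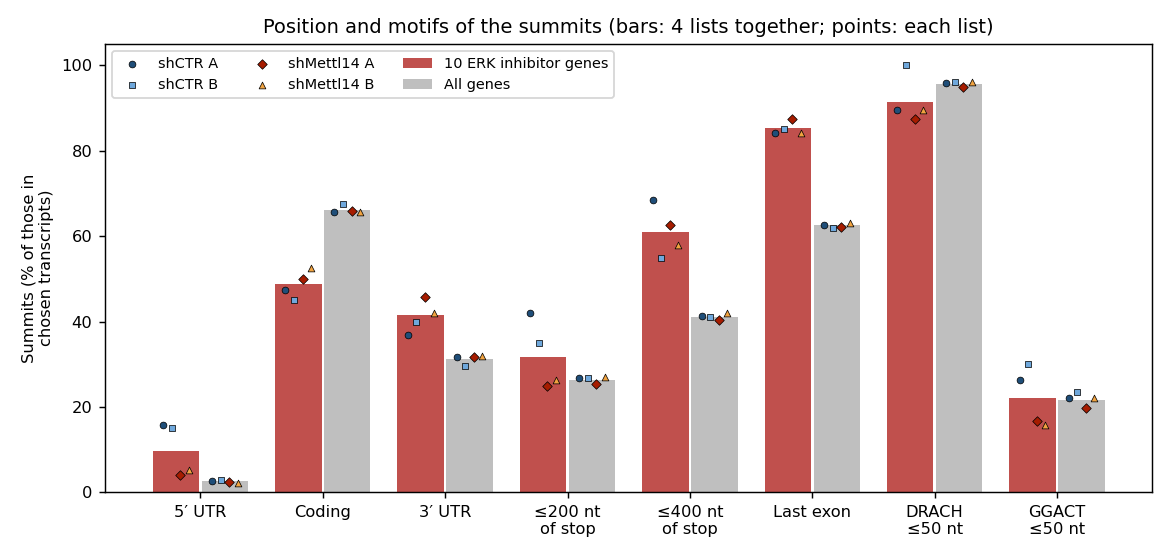
Bars give the percentage of summits in each transcript part, near the stop codon, in the last exon or near a motif, over the 4 lists together, in red for the 10 ERK inhibitor genes and in grey for all genes, and points give each list. The last exon holds 85.4% of the summits of the 10 genes and 62.5% of all summits, and each point of the 10 genes stands for 19 to 24 summits.

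Of 25 genes of the ERK cascade and its adaptors, which the 10 genes restrain, 9 had an exonic summit in any list and 7 in all 4. Their 8 regions found in all 4 lists were higher in shMettl14 in 3 and lower in 5, with a median of −0.08 normal score units. Sos1, an activator of RAS, had the only unadjusted p under 0.05 among them. Its coding region had 26 and 18 fragments in shCTR A and B and 13 and 9 in shMettl14 A and B, and its rank difference was −1.31 ± 0.53 (SE, limma adjusted p = 0.951). Both shCTR lists were above both shMettl14 lists, without passing the correction, and the difference was −0.77 without shMettl14 B. Gab1, a docking protein, had a coding region with 12 fragments in each shCTR list and no peak in shMettl14. Its percentiles were 33.4 in shCTR A and 53.0 in shCTR B. Of all regions 1.71% were likewise found in shCTR alone and 1.79% in shMettl14 alone. The adaptor Frs2, through which FGF receptors signal, had the highest mean percentile of the list, 86.6 over the 4 lists, followed by Sos2 with 77.0 and Shc1 with 73.2.

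Of 20 further negative regulators of RAS and ERK in the annotation, 12 had a summit in any list and 9 in all 4. Of their 8 regions in all 4 lists, 6 ranked higher in shMettl14 and 2 lower, with a median of 0.29, compared with 2471 and 2458 of all regions, and 2 had an unadjusted p under 0.05 in limma (4.93% of all regions) but none an adjusted one. Dusp3, a small atypical phosphatase, was enriched 15- and 10.9-fold in the A and B lists of shCTR and 16.7- and 25.8-fold in those of shMettl14, a rank difference of 1.22 ± 0.52 (SE, limma adjusted p = 0.951), although its log2 fragments differed by −0.26, in the opposite direction. The rank difference of Dusp3 was 0.75 without shMettl14 B and 0.30 when −log10 p was ranked. Dusp8, a phosphatase for JNK and p38, was enriched 13.4-, 11-, 7.36- and 6.38-fold in the same order, a rank difference of −1.26 ± 0.49 (SE, limma adjusted p = 0.927). Of the rest Dusp16 had the highest mean percentile, 70.5, before Rasa1 with 57.9 and Errfi1 with 55.0.

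Of 12 genes that respond to ERK, 8 had a summit in any list and 5 in all 4. Of their 7 regions in all 4 lists, 6 ranked higher in shMettl14 and 1 lower, with a median of 0.26. The lower one was in the 3′ UTR of Phlda1, with 27 and 19 fragments in shCTR and 21 and 12 in shMettl14, and a rank difference of −1.35 ± 0.57 (SE, limma adjusted p = 0.951). It rested largely on 1 list, with −0.37 without shMettl14 B and −2.33 without shMettl14 A. Egr1, an immediate early transcription factor, had a mean percentile of 62.8, Epha4 62.7 and Myc 60.8.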

How the data were processed

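m6A-RIP-seq was measured in 8 samples of mouse primary VSMCs, an IP and an input sample for each of 2 replicates of shCTR and shMettl14. The authors aligned reads to mm10 (GRCm38), discarded reads without a unique position by means of SAMtools, and ran MACS2 for each IP sample with the matching input as control. STAR is also named in the submitters' processing notes, and versions and options are not given in the sources used here. The deposited lists give, for each summit, the fold enrichment (a ratio of the IP pileup plus 1 over the local background plus 1) and the −log10 p and −log10 q. Further deposited files give intervals that the authors found in both replicates of an shRNA. All 12 regions of these genes found in all 4 lists overlapped an interval of both files. The study's methods give a sequencing depth for the libraries in general, but the lists hold no read number of their own, so IP fragments and background at each summit were recovered from the ratio and the −log10 p (in every list, for 100.0% of summits a whole number of fragments gave the deposited −log10 p within 0.001). Such fragments are not independent molecules.

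The 10 genes, the gene lists and the tests were chosen with earlier results of these data known. All 10 genes were named. From the other lists, genes were named when a region had an unadjusted p under 0.05 or was found in one group only, with up to 3 more per list by mean percentile. Spry3 was not analysed here. Regions were compared by the moderated test of limma 3.58.1 in R 4.3.3 and Benjamini-Hochberg adjustment over 4929 regions, without a replicate block. Nothing states that replicates came from separate cultures, so p-values measure the spread between these samples, which may be technical. Positions refer to 1 complete coding transcript per gene (GENCODE M21), the one with the longest coding sequence. Input samples have no peak list of their own. Alternatives were other measures, thresholds, overlaps, the block, each list left out and the Fisher's exact test that the study's methods name, run on recovered fragments. The separate fits of fragments and background, with their own alternatives, and the chaining of sites within 50 or 150 nt and the percentiles within common sites were chosen after seeing the data. Some genes of the lists are not reported here.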

Additional observations from a re-analysis of the deposited data

How the results depend on the processing

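In 151 of 176 recomputed rank differences of the 12 regions and of Sos1, Dusp3, Dusp8 and Phlda1 the direction was kept, in 25 it turned, and none passed an adjusted p of 0.05 under any setting. That count is no measure of stability. The replicate block cannot change an estimate in a balanced design, and merging at 50 bp shared left the printed estimates as they were. Dusp1 at 0.00 was counted as kept. Ranking −log10 p turned Dusp6 to −0.12, the coding region of Spry2 to −0.05 and the stop codon region of Spry1 to 0.11, and took Dusp1 to 0.00 and Dusp3 to 0.30. Fitting log2 fragments, a setting chosen after seeing the data, turned Dusp6 to −0.31, Spry2 coding to −0.14, Dusp1 to −0.27, Spry4 to −0.10, Spry1 coding to −0.13, Spry1 stop codon to 0.34 and Dusp3 to −0.26. Fisher's exact test on summed fragments turned the same 7, to −0.25, −0.08, −0.23, −0.06, −0.24, 0.34 and −0.24 (log2). The cause was not tested.

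With 1 list left out the estimates ran from −0.19 to 0.38 for Dusp6, −0.11 to 0.39 for Spry2 coding, −0.59 to 0.82 for Spry1 coding, −0.29 to 0.19 for Spry1 stop codon and −0.37 to 0.29 for Dusp4, and without a change of sign from −0.74 to −0.07 for Dusp7, −2.33 to −0.37 for Phlda1, −1.85 to −0.77 for Sos1 and 0.75 to 1.69 for Dusp3. The regions with an adjusted p under 0.05 numbered 0 to 3 with 1 list left out, the 3 without shMettl14 A, and none of the 3 was in these genes. Leaving out a list leaves 1 sample in a group, which is assumed to vary like the other group. The difference in member summits was −0.50 to 4.50, and that in the mean percentile 3.00 to 9.30. The regions found in shCTR alone numbered 1 to 2, with the second, a Spry4 region, added without shCTR A, and 0 with a −log10 q of at least 3 or with lists of equal size. The background estimate of Spry4 ran from −1.24 to −0.91, and its unadjusted limma p reached 0.0613 without shMettl14 B.

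The share of summits near the stop codon was 11% with 100 nt (14.2% over all genes), 61% with 400 nt (41.1%) and 41.7% with the interval midpoint (25.8%). With 100 nt, DRACH was found at 100%. The replicate letters could not be shown to pair the samples, with 2 pairs and a correlation of 0.0795 between the deviations of the A lists. With the replicate block, 0 regions passed an adjusted p of 0.05 (292 unadjusted, against 243), and the smallest adjusted p in these genes was 0.884. The lists do not give their read numbers, and medians of 13 to 16 fragments limit the precision of any single peak.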
